A study of Mus musculus with 12 samples.

Results

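The 8 genes described here belong to cholesterol synthesis (*Hmgcs1*, *Sqle*, *Idi1* and the regulator *Srebf2*) and to cholesterol efflux and lipoprotein handling (*Abca1*, *Abcg1*, *Apoe* and *Pltp*), and were taken from the deposited count table by gene symbol, 8 of its 55487 genes. They were measured by RNA-Seq in 12 whole lungs of miR-30a-/- mice, a model in which neonatal hyperoxia stands in for the lung injury of bronchopulmonary dysplasia. The study asked whether the lung's response to hyperoxia still differs between the sexes once *miR-30a* is lost. All 8 genes passed the filter on low counts, which kept 45828 genes.

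Every lung, controls included, came from a C57BL/6J mouse in which CRISPR/Cas9 had removed the entire *miR-30a* gene in all cells, so no group here carries an intact *miR-30a*. Hyperoxia-exposed pups breathed 95% FiO2 from postnatal day (PND) 1 to PND 5, returned to room air, and were euthanized on PND 21, whereas control pups stayed in room air until the same age. There were 3 lungs in each of 4 groups, namely female and male lungs after hyperoxia and from room air. Pups of several litters were pooled before they were split between the exposures, dams were rotated, and the right ventricle was perfused with PBS before the lungs were frozen. Samples are named by the animal number in their titles, which for females runs 2, 5 and 6 in room air and 2, 4 and 5 in hyperoxia, and for males 1, 4 and 5 in room air and 1, 2 and 3 in hyperoxia. Wild-type lungs were not analysed here.

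Cells make cholesterol from acetyl-CoA through the mevalonate pathway. When membrane cholesterol is low, SCAP escorts the precursor of SREBP-2, the product of *Srebf2*, out of the endoplasmic reticulum, and the released factor switches on genes of synthesis and uptake, while INSIG proteins hold it back. When cholesterol is abundant, oxysterols activate the liver X receptors (LXR), which switch on *Abca1*, *Abcg1*, *Apoe* and *Pltp*. In the lung, alveolar type 2 cells use cholesterol for surfactant, alveolar macrophages clear it, and both ABC transporters help to export the excess.

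The libraries held between 8763033 and 16741694 counts on genes, so that a gene with 3 counts stood at 0.191 to 0.327 counts-per-million (CPM, scaled by the upper-quartile library size). These floors cover counting error only. As a measure of background reads, the share of counts on 2003 olfactory and vomeronasal receptor genes and pseudogenes was taken, although single receptor genes can be used by rare lung cells, and it ran from 0.453% to 1.04%. It was 0.572%, 0.453% and 0.819% in room air females 2, 5 and 6, and between 0.738% and 0.936% in hyperoxia females. In males it ran from 0.709% to 0.996% in room air and from 0.569% to 1.04% in hyperoxia. The paper reports sensory perception as positively enriched, and *Olfr78* among the upregulated genes, in hyperoxia-exposed miR-30a-/- females. Background and a response of receptor genes cannot be told apart by this share. A fit that holds the share may also take out differences that go with hyperoxia. *Xist* had 780.0 to 1736 CPM in female lungs against 14.3 to 17.3 CPM in male lungs, and *Mir30a* had 0 counts in all 12 lungs, so the deletion could not be checked from these counts. Surfactant and other alveolar type 2 markers summed to between 4956 and 12219 CPM. Room air male 1 stood apart, with skeletal muscle markers that summed to 1647 CPM against at most 86.5 CPM in every other lung.

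Sequence around the genes is shown because it carries the textbook links between them. The SREBP binding motif and the LXR binding motif were looked for in the 250 bases before each RefSeq start (GRCm38.p6), and RefSeq promoters were at hand for 6 of the 8 genes, without *Sqle* and *Abcg1*. The core of the sterol regulatory element, TCACCCCA on either strand, was found before *Hmgcs1*, *Srebf2* and *Apoe*, and is set in capitals below. *Hmgcs1* is shown at chr13:119690101-119690350 on the plus strand and *Srebf2* at chr15:82147019-82147180 on the plus strand. The *Srebf2* stretch was cut to 162 bases, up to the GENCODE gene start, so its end is not the RefSeq start.
Hmgcs1: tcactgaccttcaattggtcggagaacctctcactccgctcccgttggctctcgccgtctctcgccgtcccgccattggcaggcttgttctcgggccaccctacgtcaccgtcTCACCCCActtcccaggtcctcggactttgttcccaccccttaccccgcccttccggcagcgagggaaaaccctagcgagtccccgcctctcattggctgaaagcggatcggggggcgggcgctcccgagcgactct
Srebf2: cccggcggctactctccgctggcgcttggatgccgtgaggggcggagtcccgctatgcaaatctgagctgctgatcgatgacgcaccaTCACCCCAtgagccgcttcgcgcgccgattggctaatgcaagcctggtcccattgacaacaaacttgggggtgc
The element lay 137 to 130 bases before the *Hmgcs1* start, 162 to 155 bases before the RefSeq *Srebf2* start and 213 to 206 bases before 1 of the 3 *Apoe* starts. Of all 32851 RefSeq promoters, 1.34% held the same letters, and among the 15 cholesterol synthesis genes with a promoter only *Hmgcs1* did. The search was chosen after the values were seen, a match is a description of letters, and it says nothing about the factor in these lungs.

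The LXR motif, a direct repeat, was searched on both strands as GGTTA and GGTCA with 5 bases of any kind between them, and was found before *Abca1* on the strand opposite to the one printed, at chr4:53159896-53160145 on the minus strand. The same letters were in 0.0457% of all promoters, 15 of 32851.
Abca1: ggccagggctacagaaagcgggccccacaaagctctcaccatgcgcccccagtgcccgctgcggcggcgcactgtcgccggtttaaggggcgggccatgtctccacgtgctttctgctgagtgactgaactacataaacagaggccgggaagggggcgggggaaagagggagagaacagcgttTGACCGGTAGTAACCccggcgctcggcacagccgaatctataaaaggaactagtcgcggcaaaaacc

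An intron of *Srebf2* also encodes *Mir33*, whose mature miR-33-5p is known to repress *Abca1*. The RefSeq sequences of miR-33-5p (chr15:82198127-82198147, plus strand) and of the deleted miR-30a-5p (chr1:23272274-23272295, plus strand, outside protein-coding genes) are given with the seed, bases 2 to 8, in capitals.
miR-33-5p: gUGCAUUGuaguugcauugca
miR-30a-5p: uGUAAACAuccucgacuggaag
The match to the miR-33-5p seed, CAATGCA, occurred 3 times in the longest annotated 3' UTR of *Abca1* and 2 times in that of *Abcg1*, and 0 times in those of the other 6 genes. Among genes with UTRs of like length, 14.4% held at least 1 such match for *Abca1* and 20.4% for *Abcg1*. The stretches that hold all of these matches (GENCODE, GRCm38, chr4:53033783-53033812 minus strand and chr17:31114998-31115022 plus strand) read as follows, with the matches in capitals.
Abca1 3' UTR: tattCAATGCAATGCActtCAATGCAacga
Abcg1 3' UTR: aacgCAATGCAacgCAATGCAgaca
The miR-30a-5p match, TGTTTAC, was in none of the 8 longest 3' UTRs, whereas 1.94% to 34.1% of genes with UTRs of like length held it. *Mir33* itself had 1 to 7 counts per lung, too few for a comparison.

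Levels were compared between genes per kilobase of exon (RPKM). Over the 12 lungs, *Pltp*, which moves phospholipid between lipoproteins, was the highest at 59.0 ± 15.97 RPKM (SD), followed by *Apoe*, the apolipoprotein that carries exported cholesterol, at 39.8 ± 9.02 RPKM. *Abca1* stood at 19.9 ± 5.46 RPKM and *Srebf2* at 13.3 ± 2.92 RPKM. *Abcg1*, *Hmgcs1* and *Sqle* followed at 11.3 ± 1.55, 8.98 ± 2.72 and 5.68 ± 0.892 RPKM. *Idi1*, which interconverts the isoprene building blocks, was the lowest at 1.32 ± 0.148 RPKM. If receptor reads fell on all exons at the same density, they would make up 89.3% of the counts of *Idi1*, against 20.7% for *Sqle*, 12.8% for *Hmgcs1*, and 1.95% to 10.4% for the other 5 genes. On that assumption the values of *Idi1* are close to the density of reads on receptor genes. In this order each gene's range over the 12 lungs overlapped that of the next, except for *Sqle* (lowest 4.80 RPKM) and *Idi1* (highest 1.59 RPKM).

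**Figure D1:**
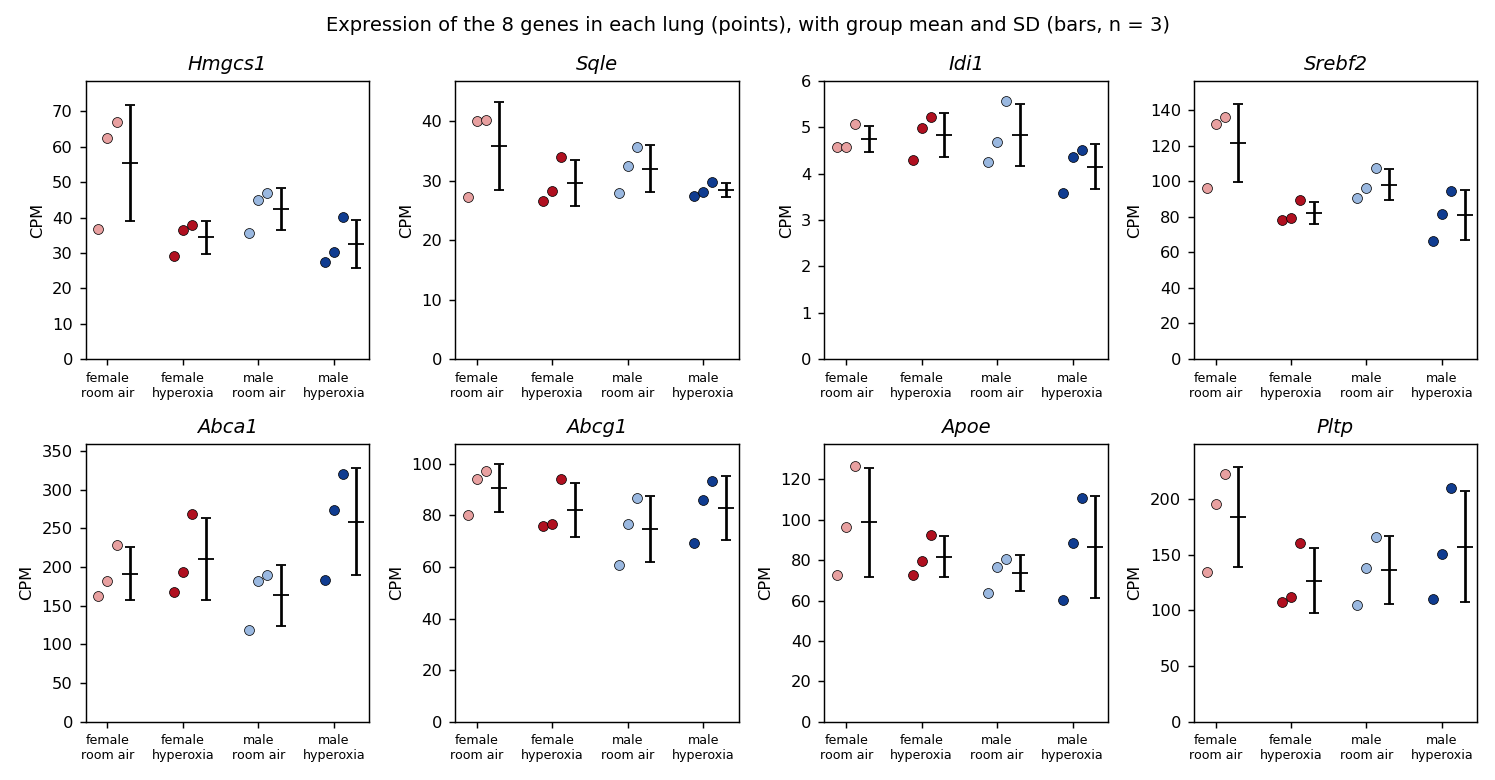
CPM of each of the 8 genes (y axes from 0) in each lung by sex and exposure, with points for lungs and bars for the mean and SD of 3 lungs. *Hmgcs1* and *Srebf2* had their highest values in room air females 2 and 5, and *Abca1* had its highest value, 320.1 CPM, in a hyperoxia male.

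In female lungs, *Hmgcs1* and *Srebf2* had lower levels after hyperoxia, by 37.9% and 32.4% in the fitted means, *Pltp* was 31.1% lower, and the other 5 genes differed by less. None of the 8 genes passed the test, which asked for a Benjamini-Hochberg adjusted p under 0.05 in edgeR's quasi-likelihood fit of all genes and a fold change over 1.5. This count of 0 of 8 stands beside 1 called gene among all 45828, or 0.00218%. At an unadjusted p under 0.05, 3 of the 8 genes were lower and 0 were higher, against 5.28% and 7.32% of all genes, and the DESeq2 Wald test also called 0 of the 8, against 0.096% of all genes.

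*Hmgcs1* encodes the cytosolic enzyme that makes HMG-CoA, an early step of the mevalonate pathway. It stood at 67.1, 62.5 and 36.7 CPM in room air females 2, 5 and 6 and at 36.4, 37.9 and 29.1 CPM in hyperoxia females 2, 4 and 5. Room air female 6 lay among the hyperoxia lungs, so the groups overlapped by that lung. The log2 fold change was -0.69 ± 0.20 (SE), with an adjusted p of 0.299 in edgeR. Without room air female 6 it was -0.92 and *Hmgcs1* was called (adjusted p = 0.0303 in edgeR), as were 0.44% of all genes in that fit, but it became -0.31 (adjusted p = 0.900) with the log2 receptor share as a covariate. With 1, 2 or 3 factors of RUVr, which draws factors of unwanted variation from the residuals of the fit and was part of the study's own normalization, *Hmgcs1* was at -0.66 to -0.65 and was called, as were 4.16%, 4.17% and 4.48% of all genes. The receptor share was 0.819% in female 6 and 0.572% and 0.453% in the other room air females, and its part in the difference was not tested.

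*Srebf2* encodes the regulator of the pathway. Its levels were 136, 132 and 96.1 CPM in room air females 2, 5 and 6, and 89.2, 79.4 and 78.0 CPM in hyperoxia females 2, 4 and 5. These groups did not overlap, and *Srebf2* was the 1 gene of the 8 of which this was true in females, where 6.42% of all genes tested had all hyperoxia values below all room air values and 10.8% above. The log2 fold change was -0.56 ± 0.20 (SE), with an adjusted p of 0.352 in edgeR, and it was -0.28 once the receptor share was added to the fit. With RUVr factors or the receptor share in the fit, its adjusted p was as low as 1.5e-09 in edgeR. No alternative called it in females.

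*Sqle*, squalene epoxidase, a control point further down the pathway, had 40.0, 40.2 and 27.3 CPM in room air females and 28.3, 33.9 and 26.6 CPM in hyperoxia females, in the same order of animals. Room air female 6 was again the low control, and the groups overlapped (log2 fold change -0.28 ± 0.16, SE, adjusted p = 0.438 in edgeR). The adjusted p of *Sqle* was as low as 0.034 in edgeR with RUVr factors or the receptor share in the fit, without a call. *Idi1* lay between 4.30 and 5.23 CPM in all 6 female lungs, with a log2 fold change of 0.02 ± 0.22 (SE).

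Of the efflux genes, *Abca1*, the transporter that loads cholesterol onto apolipoprotein A-I, had 182, 229 and 163 CPM in room air females and 269, 167 and 194 CPM in hyperoxia females. Hyperoxia female 2 held the highest value and the other 2 lay within the room air range (log2 fold change 0.13 ± 0.26, SE, adjusted p = 0.817 in edgeR). Without hyperoxia female 2 the sign turned, to -0.09, and with the receptor share in the fit the value was 0.56. *Abcg1*, which passes cholesterol on to formed HDL and keeps macrophages clear of sterol, lay between 75.7 and 97.4 CPM in the 6 lungs, with a log2 fold change of -0.14 ± 0.20 (SE). *Apoe* was 96.6, 127 and 72.8 CPM in room air and 92.5, 72.5 and 79.7 CPM in hyperoxia, a log2 fold change of -0.27 ± 0.23 (SE) that ran from -0.46 to -0.055 when 1 lung was left out and became 0.20 once the receptor share was added.

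*Pltp* had 195, 222 and 134 CPM in room air females 2, 5 and 6 and 161, 107 and 112 CPM in hyperoxia females 2, 4 and 5. Only hyperoxia female 2 exceeded room air female 6. The log2 fold change was -0.54 ± 0.26 (SE), with an adjusted p of 0.396 in edgeR. Adding the receptor share brought it to -0.00085. Under RUVr the adjusted p of *Pltp* was as low as 1.4e-09 in edgeR, and it was not called. In those RUVr fits 7661 to 8445 of all 45828 genes had an adjusted p under 0.05.

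**Figure D2:**
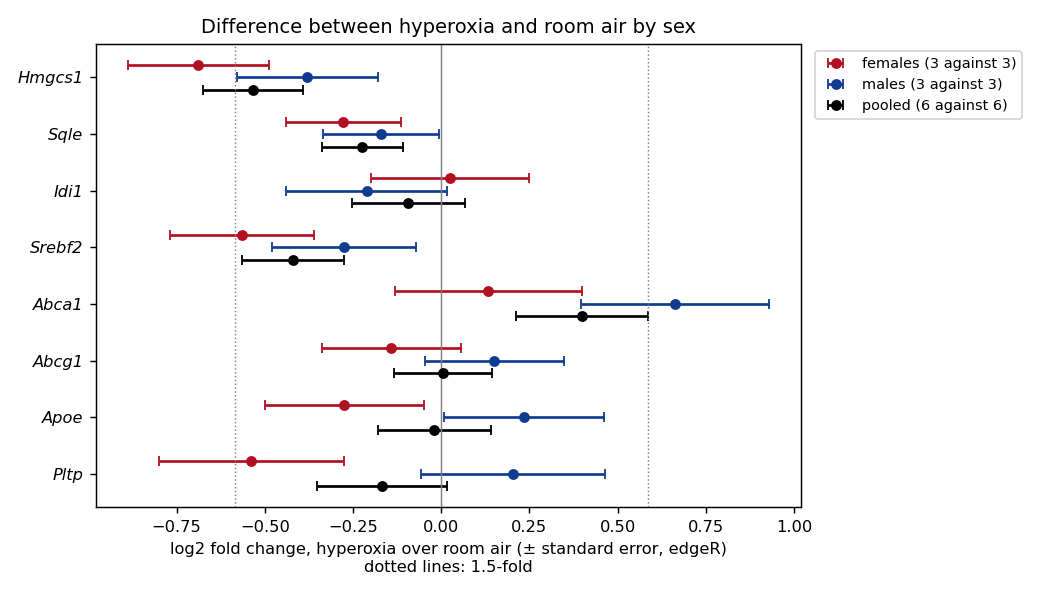
Log2 fold change of hyperoxia over room air for the 8 genes (x axis), with its standard error, in females, in males and pooled, and dotted lines at 1.5-fold. *Hmgcs1* was below 0 in both sexes (-0.69 and -0.38), whereas *Pltp* was -0.54 in females and 0.20 in males.

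In male lungs, *Abca1* was 58.4% higher after hyperoxia in the fitted means and *Hmgcs1* was 23.1% lower, but again 0 of the 8 genes were called, and 0% of all genes tested. At an unadjusted p under 0.05, 1 of the 8 was higher and 0 were lower, against 0.899% and 1.8% of all genes, and DESeq2 called 0 of the 8 and 0% of all genes. All 8 genes overlapped between the exposures in males, where 2.73% of all genes had higher and 3.89% lower groups without overlap. *Abca1* stood at 118, 189.9 and 182 CPM in room air males 1, 4 and 5 and at 320.1, 183 and 273 CPM in hyperoxia males 1, 2 and 3. Hyperoxia male 2, the shallowest library and the one with the highest receptor share (1.04%), lay within the room air range, while the other 2 hyperoxia lungs lay above it. The log2 fold change was 0.66 ± 0.27 (SE), with an adjusted p of 1.00 in edgeR. It was 0.87 without hyperoxia male 2 and 0.48 without room air male 1, the lung with the skeletal muscle markers, and neither was called. With 2 or 3 RUVr factors *Abca1* was at 0.67 and was called, as were 0.109% and 0.164% of all genes.

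Of the synthesis genes in males, *Hmgcs1* had 44.9, 46.9 and 35.7 CPM in room air males 1, 4 and 5 and 40.1, 27.3 and 30.3 CPM in hyperoxia males 1, 2 and 3. The groups overlapped through room air male 5 and hyperoxia male 1 (log2 fold change -0.38 ± 0.20, SE, adjusted p = 1.00 in edgeR). *Srebf2* had 96.4, 107 and 90.3 CPM in room air and 94.8, 66.5 and 81.5 CPM in hyperoxia, a log2 fold change of -0.27 ± 0.20 (SE) that ran from -0.40 to -0.14 when 1 lung was left out. With RUVr factors or the receptor share in the fit, the male adjusted p in edgeR was as low as 0.030 for *Hmgcs1* and 0.017 for *Srebf2*. Neither was called. *Sqle* and *Idi1* were at -0.17 ± 0.16 and -0.21 ± 0.23 (SE), both with overlapping groups. They ran from -0.26 to -0.082 and from -0.29 to -0.095 when 1 lung was left out.

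The other efflux genes lay above 0 in males. *Apoe* had 63.7, 76.7 and 80.5 CPM in room air males and 111, 60.2 and 88.7 CPM in hyperoxia males, a log2 fold change of 0.24 ± 0.23 (SE) that ran from 0.023 to 0.45 when 1 lung was left out. Hyperoxia male 2 was the lowest of the 6 and the other 2 hyperoxia lungs were the highest. *Pltp* had 105, 166 and 138 CPM in room air and 209.9, 110.5 and 151 CPM in hyperoxia (log2 fold change 0.20 ± 0.26, SE), and without hyperoxia male 1 the sign turned, to -0.06. *Abcg1* ran from 60.9 to 93.5 CPM over the 6 lungs, with a log2 fold change of 0.15 ± 0.20 (SE, 0.027 to 0.28 when 1 lung was left out).

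Pooled over the sexes, as the average of both within-sex differences in the same fit, *Hmgcs1* was lower by 30.9%, *Srebf2* was lower by 25.2% and *Abca1* was higher by 31.9%. None was called, against 19 of all genes or 0.0415%. At an unadjusted p under 0.05, 1 of the 8 was higher and 2 were lower, against 2.67% and 2.52% of all genes. The log2 fold change of *Hmgcs1* was -0.53 ± 0.14 (SE), with an adjusted p of 0.439 in edgeR, and this was the 78th smallest p of all genes tested. Without room air female 6 it was -0.65 and was called (adjusted p = 0.0264 in edgeR), as were 0.0684% of all genes. *Srebf2* was at -0.42 ± 0.14 (SE, adjusted p = 0.896) and *Abca1* at 0.40 ± 0.19 (SE, adjusted p = 0.927) in edgeR. In the 6 hyperoxia lungs of both sexes *Hmgcs1* ran from 27.3 to 40.1 CPM, with a median of 33.3, and in the 6 room air lungs from 35.7 to 67.1 CPM, with a median of 45.9. *Srebf2* ran from 66.5 to 94.8 CPM after hyperoxia and from 90.3 to 136 CPM in room air. Both genes overlapped between the exposures, as did the other 6, where 0.12% of all genes did not overlap in the lower and 0.0938% in the higher direction. *Sqle* was at -0.22 ± 0.12 (SE), *Pltp* at -0.17 ± 0.18, *Idi1* at -0.09 ± 0.16, *Apoe* at -0.02 ± 0.16 and *Abcg1* at 0.01 ± 0.14.

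With the log2 receptor share as a covariate, *Abca1* had a pooled log2 fold change of 0.55 with an adjusted p of 0.00132 in edgeR, and *Srebf2* one of -0.32 with an adjusted p of 0.00754. Both folds were under 1.5, so neither was called. *Hmgcs1* was at -0.40 in that fit, with an adjusted p of 0.0551.

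The response was compared between the sexes by the interaction of sex and hyperoxia, female minus male. It lay below 0 for 7 of the 8 genes and above 0 for *Idi1*, where 41.4% of all genes lay below 0. None of the 8 was called, and 0% of all genes were, with 0 of the 8 at an unadjusted p under 0.05 against 8.46% of all genes. *Pltp* came closest, with an interaction of -0.74 ± 0.37 on the log2 scale (SE, adjusted p = 0.578 in edgeR), and it was -0.06 with the receptor share as a covariate, whereas with 1, 2 or 3 RUVr factors it was -0.71 to -0.70 and was called, as were 4.61%, 4.73% and 5.23% of all genes. *Abca1* was at -0.53 ± 0.37 (SE, adjusted p = 0.590), *Apoe* at -0.51 ± 0.32 (SE, adjusted p = 0.581) and *Hmgcs1* at -0.31 ± 0.28 (SE, adjusted p = 0.654) in edgeR. When 1 lung was left out, the interaction ran from -0.96 to -0.48 for *Pltp*, -0.76 to -0.35 for *Abca1*, -0.73 to -0.30 for *Apoe* and -0.54 to -0.14 for *Hmgcs1*. With the receptor share in the fit, 6 of the 7 negative interactions turned positive, to 0.0052 for *Abca1*, 0.10 for *Apoe* and 0.18 for *Hmgcs1*, and *Pltp* alone stayed below 0. Under RUVr the adjusted p in edgeR was also as low as 0.00011 for *Abca1*, 0.0011 for *Apoe* and 0.026 for *Abcg1*, none of them called. In those fits 5353 to 6248 of all 45828 genes had an adjusted p under 0.05. A difference between the sexes in the response was not detectable for these genes at this depth and number of lungs without RUVr.

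Levels were also set against each other between the sexes. In room air, 7 of the 8 genes were higher in females and *Idi1* was at -0.03, with log2 differences of up to 0.43 ± 0.26 (SE) for *Pltp*, 0.42 ± 0.23 for *Apoe* and 0.39 ± 0.20 for *Hmgcs1*. When 1 lung was left out, these ran from 0.28 to 0.62, 0.21 to 0.61 and 0.23 to 0.62. Of all genes, 40.1% were higher in females. With the receptor share in the fit these 3 differences turned, to -0.10, -0.054 and -0.0011, and that of *Abca1* to -0.19. In other alternatives that keep all lungs the adjusted p in edgeR went the other way. It was as low as 3.1e-07 for *Pltp*, 2.2e-05 for *Apoe* and 0.0046 for *Hmgcs1*, at folds under 1.5. RUVr called 4.91% to 5.36% of all genes in this comparison and none of the 8. None of the 8 was called, against 0.386% of all genes. After hyperoxia the differences ran from -0.31 (*Pltp*) to 0.21 (*Idi1*), and 0 of the 8 were called against 0.696% of all genes. At an unadjusted p under 0.05 there were 0 of the 8 in each exposure, against 12.7% and 4.69% of all genes, and neither DESeq2 nor the edgeR likelihood ratio test called any of the 8 in any of the 6 comparisons, where DESeq2 called 0% to 0.807% and the likelihood ratio test 0% to 1.06% of all genes. In the order of the 4 group means, room air females were the highest for *Hmgcs1*, *Sqle*, *Srebf2*, *Abcg1*, *Apoe* and *Pltp*, and hyperoxia males were the highest for *Abca1*. Neighbouring groups in each gene's order overlapped in their ranges, except for *Srebf2* between room air males (98.0 ± 8.64 CPM, SD, n = 3) and hyperoxia females (82.2 ± 6.11 CPM, SD, n = 3) and for *Idi1* between room air females (4.75 ± 0.287 CPM) and hyperoxia males (4.15 ± 0.490 CPM).

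Across the 12 lungs, the levels of most of the 8 genes were lower in lungs with a higher receptor share. Pearson's r between log2 CPM and the log2 receptor share was -0.95 for *Pltp*, -0.92 for *Apoe*, -0.87 for *Abcg1*, -0.81 for *Srebf2*, -0.76 for *Hmgcs1*, -0.59 for *Sqle*, -0.53 for *Abca1* and -0.16 for *Idi1* (n = 12 lungs). With the group means taken out, r was -0.84 for *Abca1* and -0.96 for *Pltp*. Without the 2 lungs farthest from the median share, r was -0.93 for *Pltp* and -0.36 for *Abca1*. The points share their libraries and their scaling, since receptor reads are part of each total. *Pltp* stood at 222 CPM in room air female 5, which had the lowest share (0.453%), and at 110.5 CPM in hyperoxia male 2, which had the highest (1.04%).

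**Figure D3:**
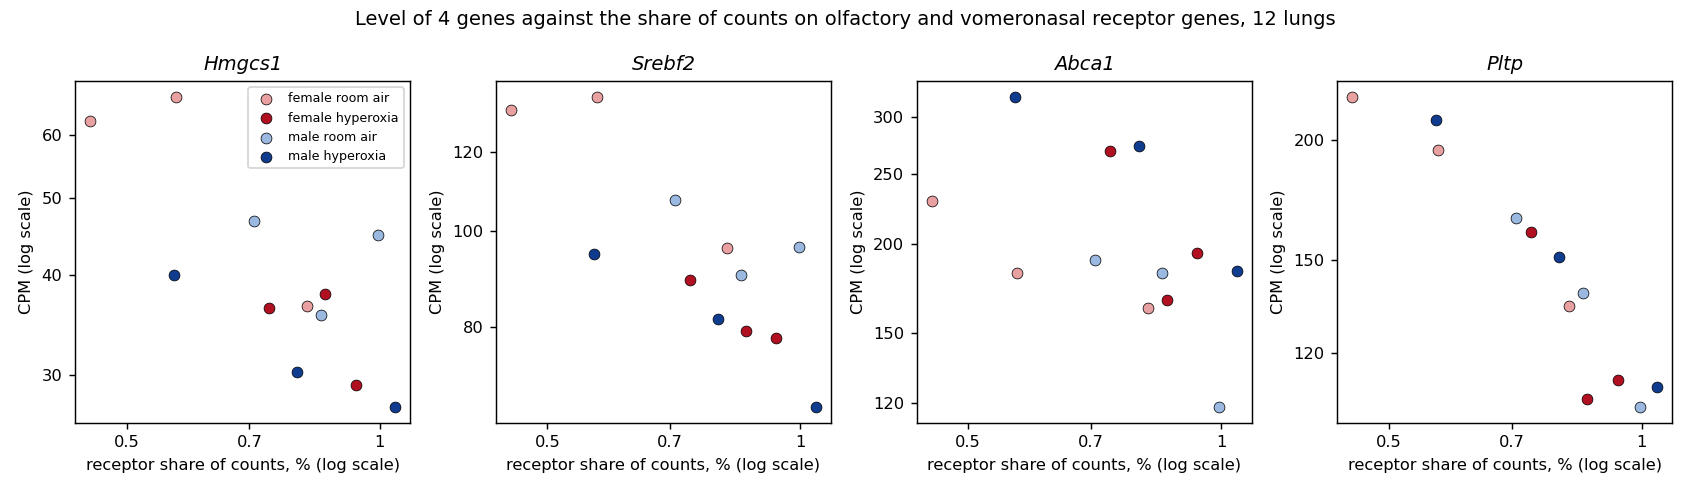
CPM of *Hmgcs1*, *Srebf2*, *Abca1* and *Pltp* (log y axes) against the share of counts on receptor genes (log x axis), 1 point a lung, coloured by group. *Pltp* lay along 1 falling line in all 4 groups (r = -0.95), whereas *Abca1* was higher in hyperoxia males 2 and 3 than in room air males with like shares.

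Cell type markers are given beside these values. In females, all 9 alveolar type 2 markers lay below 0 after hyperoxia (median log2 fold change -0.51), as did all 6 alveolar type 1 markers (median -0.45) and all 5 endothelial markers (median -0.43), where 39% of all genes lay below 0, and 0 of these 20 genes were called. At an unadjusted p under 0.05, 3 of the 6 alveolar type 1 markers were lower, against 5.28% of all genes. The summed alveolar type 2 markers ran from 6341 to 12219 CPM in room air females and from 5961 to 7747 CPM in hyperoxia females. In males, all 9 alveolar type 2 markers lay above 0 (median 0.19), where 48% of all genes did, and their sums ran from 5218 to 8327 CPM in room air and from 4956 to 10407 CPM in hyperoxia. Alveolar macrophage markers, from cells that use *Abcg1* and *Apoe* heavily, had a median of -0.02 in females (4 of 10 above 0) and 0.11 in males (9 of 10 above 0), with sums of 271 to 488 CPM in room air females, 285 to 426 CPM in hyperoxia females, 234 to 315 CPM in room air males and 316 to 441 CPM in hyperoxia males. Lipofibroblast markers lay above 0 in males for 5 of 5 genes (median 0.26), with 2 of them higher at an unadjusted p under 0.05 (0.899% of all genes) and 1 higher without overlap (2.73% of all genes), and summed to 319 to 456 CPM in room air males and 383 to 671 CPM in hyperoxia males. In females 4 of 5 lay below 0 (median -0.16). Club cell markers lay below 0 in females for 3 of 3 genes (median -0.58), with sums of 6235 to 12242 CPM in room air and 4371 to 6435 CPM in hyperoxia, and in males for 2 of 3 (median -0.20). Interstitial macrophage and monocyte markers summed to 211 to 234 CPM in room air females and to 180 to 199 CPM in hyperoxia females, without overlap, and to 187 to 223 and 165 to 199 CPM in males. Pooled, 3 of these 9 genes were lower at an unadjusted p under 0.05, against 2.52% of all genes, and 1 did not overlap, against 0.12%. The part of cell makeup in the values of the 8 genes was not tested, and fewer cells of a type and less RNA per cell cannot be told apart in whole lung.

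The levels of the 8 genes were also compared with each other and with all other genes. Over the 12 lungs, Pearson's r of log2 CPM was 0.96 between *Hmgcs1* and *Srebf2*, 0.91 between *Hmgcs1* and *Sqle*, 0.90 between *Apoe* and *Pltp*, 0.90 between *Abcg1* and *Pltp* and 0.76 between *Abca1* and *Abcg1*. Between *Hmgcs1* and *Abca1* it was -0.11, and 0.37 with the group means taken out, and between *Srebf2* and *Abca1* it was 0.0023 and 0.68. Of 14604 genes with a mean of at least 10 CPM, those most like *Hmgcs1* were *Insig1* (r = 0.96), *Sec61b* (0.96) and *Srebf2* (0.96), where *Insig1* encodes the anchor that retains the SREBP escort. Those most like *Sqle* were *Efemp1* (0.93), *Hmgcs1* (0.91) and *Ndufb5* (0.91), and those most like *Srebf2* were *Vcp-rs* (0.97), *Azin1* (0.97) and *Pip4k2a* (0.97). *Abca1* was most like *Ptpru* (0.99), *Cyp2d22* (0.96) and *Lox* (0.96). For *Abcg1* they were *Mettl7a1*, *Cbfa2t3* and *Cxcr4* (0.98, 0.97 and 0.97), for *Apoe* *B930095G15Rik*, *Chd7* and *Sqstm1* (0.99, 0.97 and 0.97), and for *Pltp* *Atrn*, *Supt5* and *Cd36* (0.99 each). *Idi1* had no partner above 0.86 (*Itm2a*, then *Gpsm2* and *Nipal1* at 0.85). The receptor share, which differs between the lungs, is common to all of these values.

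The pathway as a whole was read from 4 lists of 57 genes, the 8 genes included, all of which were tested. None was called in any of the 6 comparisons, where 0% to 0.696% of all genes were. Of 20 synthesis enzymes, 17 lay below 0 in the pooled comparison, where 44% of all genes did (median log2 fold change -0.16, against 0.03 over all genes), and 6 were lower and 1 was higher at an unadjusted p under 0.05, where 2.52% and 2.67% of all genes were. Within sexes, 16 of 20 lay below 0 in females and 16 of 20 in males, with medians of -0.22 and -0.13 against 0.11 and -0.01 over all genes. In males 52% of all genes lay below 0. *Hmgcs1* had the lowest pooled value of the list and *Tm7sf2*, a sterol reductase, the highest (0.25 ± 0.11, SE, adjusted p = 0.927 in edgeR). Most genes tested had a mean under 10 CPM, so these shares are not those of genes with like counts. Pooled, all 9 alveolar type 2 and all 6 alveolar type 1 markers also lay below 0, whereas 4 of 5 lipofibroblast markers lay above 0.

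Chosen after their values were seen, 2 further enzymes are named because they stood beside *Hmgcs1*. *Cyp51*, which removes a methyl group from lanosterol, was at -0.49 ± 0.11 (SE, adjusted p = 0.144 in edgeR), with 30.4 ± 5.02 CPM in room air females, 19.7 ± 1.79 in hyperoxia females, 23.8 ± 4.06 in room air males and 18.6 ± 1.09 in hyperoxia males (SD, n = 3). *Msmo1*, the next oxidase, was at -0.47 ± 0.11 (SE, adjusted p = 0.144), and in each sex its groups did not overlap. That was true of 6.42% of all genes in females and 3.89% in males, in the lower direction.

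Of the 12 genes of SREBP control and sterol uptake, 9 lay below 0 pooled (median -0.12, and -0.0068 with the receptor share in the fit), against 44% of all genes below 0, and 4 were lower and 1 higher at an unadjusted p under 0.05, against 2.52% and 2.67% of all genes. In females 10 of the 12 lay below 0 (39% of all genes), with a median of -0.36 that was -0.078 with the receptor share in the fit, 6 were lower at an unadjusted p under 0.05 (5.28% of all genes) and 4 were lower without overlap (6.42% of all genes). In males 8 of the 12 lay above 0 (48% of all genes), with a median of 0.07 whose sign turned, to -0.086 without hyperoxia male 1 and to -0.019 with the receptor share in the fit. *Insig1*, itself a target of SREBP-2, was the lowest at -0.45 ± 0.12 (SE, adjusted p = 0.568 in edgeR), with 43.2 ± 10.4 CPM in room air females and 27.1 ± 1.91 CPM in hyperoxia females (SD, n = 3). *Stard4*, a sterol carrier named after its value was seen, was at -0.40 ± 0.14 (SE). *Mylip*, an LXR target that lowers sterol uptake, was the highest at 0.32 ± 0.13 (SE, adjusted p = 0.927), with 0.63 ± 0.19 in males (adjusted p = 1.00) and 0.02 ± 0.19 in females in edgeR. *Srebf1* was at -0.14 ± 0.14 and *Scap* at -0.04 ± 0.11 (SE).

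The LXR and efflux list of 15 genes had a pooled median of -0.0053, with 1 gene, *Abca1*, higher and 0 lower at an unadjusted p under 0.05, against 2.67% and 2.52% of all genes. At that threshold 2 of the 15 were lower in females (5.28% of all genes) and 1 was higher in males (0.899%). In males 12 of the 15 lay above 0 (median 0.15, with 48% of all genes above 0) and in females 4 of the 15 did (median -0.17, with 60.8% of all genes above 0). Pooled, 56% of all genes lay above 0. These medians did not keep their sign. The female one was 0.096 with the receptor share in the fit, the male one -0.026 without hyperoxia male 1, and the pooled one ran from -0.11 to 0.042 over the fits that leave out 1 lung. *Lcat*, which esterifies the cholesterol of HDL, was the lowest pooled at -0.24 ± 0.14 (SE), and the receptors *Nr1h2* and *Nr1h3* were at -0.15 ± 0.13 and 0.02 ± 0.12. The HDL receptor *Scarb1* was at 0.02 ± 0.16. In the list of storage, lysosomal release and oxysterol genes, 0 of 10 had an unadjusted p under 0.05 pooled (median -0.095, and 0.0047 with the receptor share in the fit). Of all genes, 2.67% were higher and 2.52% lower at that threshold. In females 9 of the 10 lay below 0 (39% of all genes), with 1 lower at an unadjusted p under 0.05 (5.28% of all genes), and the median of -0.31 became 0.028 with the receptor share in the fit. In males 8 of the 10 lay above 0 (48% of all genes), and the median of 0.15 became -0.020 without hyperoxia male 1. The pooled values ran from *Osbp*, an oxysterol-binding protein, at -0.23 ± 0.14 (SE) to the cholesterol esterifying enzyme *Soat2* at 0.10 ± 0.11, with *Soat1* at -0.18 ± 0.18.

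**Figure D4:**
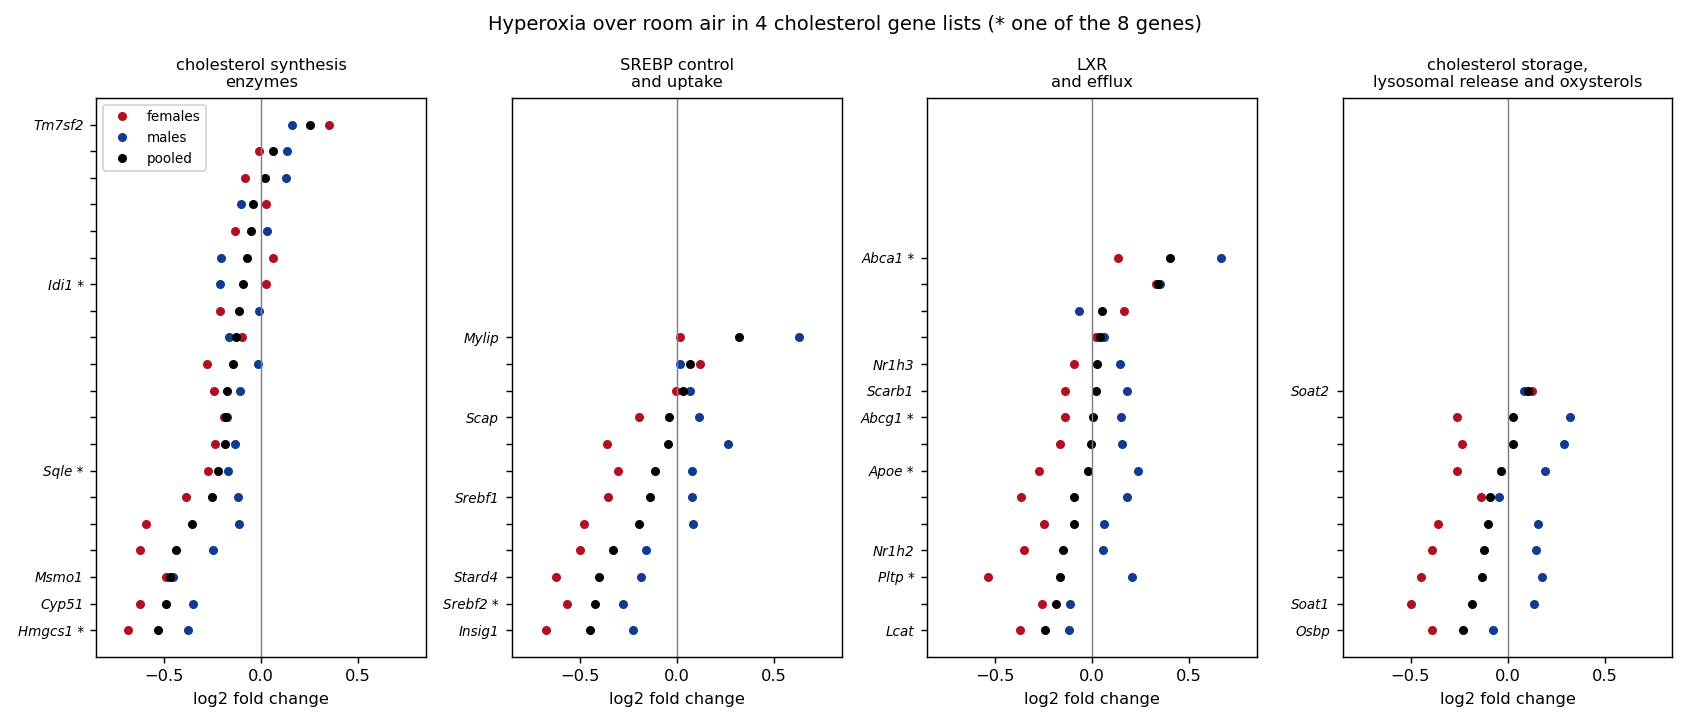
Log2 fold change of hyperoxia over room air (x axes) for every gene of the 4 lists, in females, in males and pooled, sorted by the pooled value, with names for the genes given in the text and the 8 genes starred. In the synthesis list 17 of 20 pooled values lay below 0, and in the LXR and efflux list 12 of 15 male values lay above 0.

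The pooled values of *Hmgcs1*, *Srebf2* and *Abca1* kept their direction in all 24 alternatives run, leaving out each lung included. Over those, *Hmgcs1* ran from -0.72 to -0.40, *Srebf2* from -0.49 to -0.32 and *Abca1* from 0.29 to 0.58. The adjusted p moved more. It passed 0.05 for these 3 genes only under RUVr, in 1 fit without room air female 6 (*Hmgcs1*) and in the fit with the receptor share (*Srebf2* and *Abca1*).

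**Figure D5:**
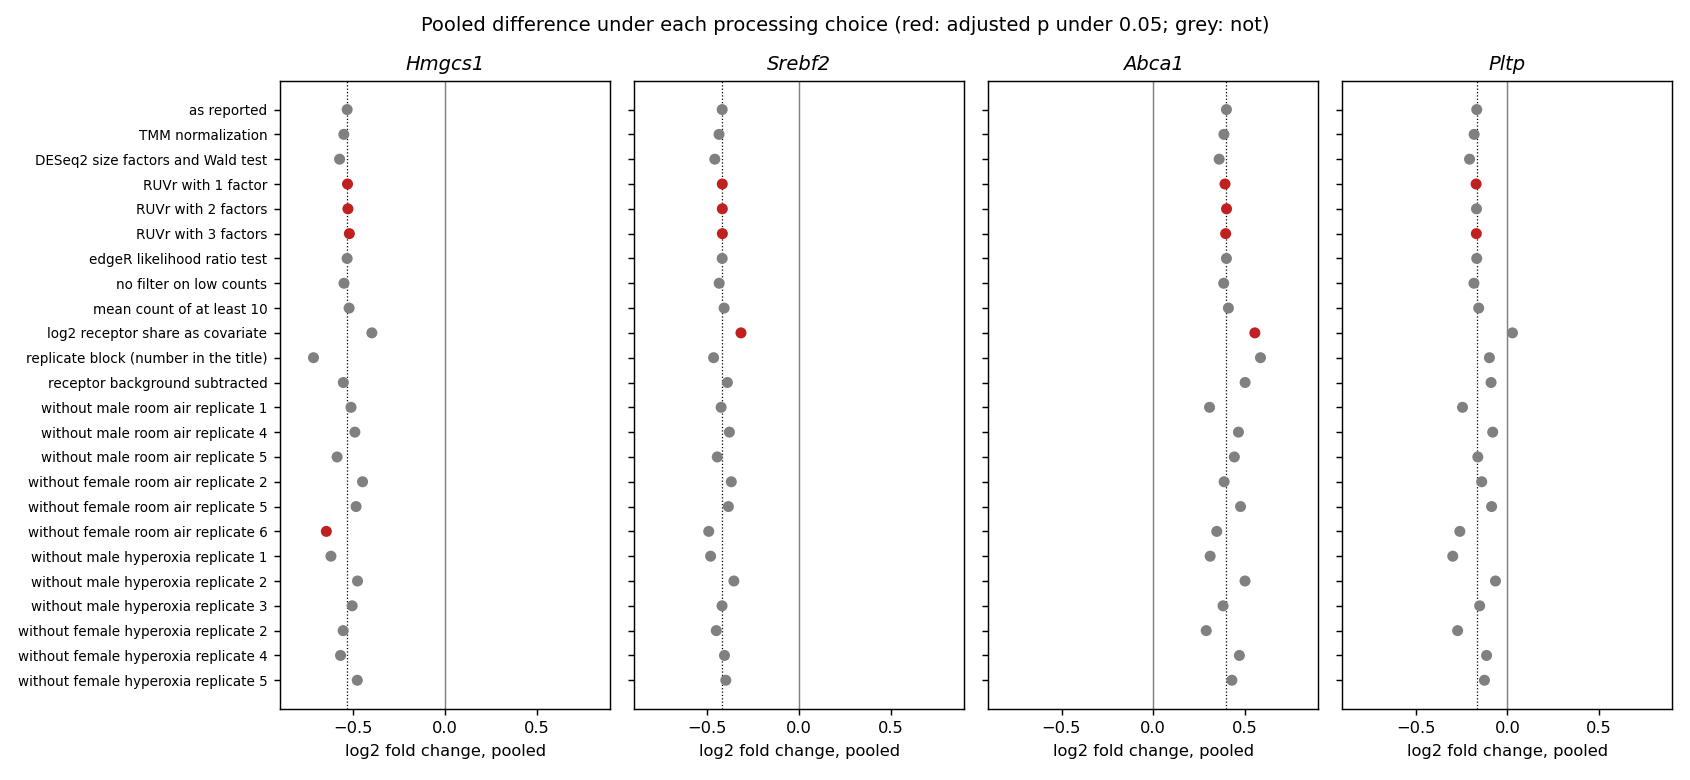
Pooled log2 fold change (x axes) of *Hmgcs1*, *Srebf2*, *Abca1* and *Pltp* under each processing choice (rows), red where the edgeR or DESeq2 adjusted p was under 0.05 whatever the fold. Values of the first 3 genes stayed on 1 side of 0, and *Pltp* ran from -0.30 to 0.03.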

How the data were processed

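Reads were trimmed (Trim Galore), aligned with STAR to the mm10 (GRCm38) genome and assigned to genes by featureCounts, all by the authors. The deposited values are raw read counts per gene, without normalization. The methods name the QIAseq Stranded kit whereas the labels name NEBNext Ultra II Directional after rRNA depletion, and the strand setting of the counting is not given in the sources used here. Counts were analysed with edgeR 4.0.16 in R 4.3.3 by a robust quasi-likelihood fit of 4 groups over all 12 lungs, with upper-quartile normalization and the filterByExpr filter. Calls needed more than a 1.5-fold change together with a p, adjusted by the Benjamini-Hochberg method, under 0.05, as in the study's methods. Nothing in the labels ties lungs to litters, so p-values measure the spread between these animals. The study also applied ComBat-seq and RUVr, but its batches and number of factors are not given in the sources used here, so the reported fit had neither. RPKM used exon lengths from GENCODE M21, which matched 55227 of the 55487 genes.

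The 8 genes, the lists and the markers were chosen with earlier results of these data known. Genes named besides the 8 were, by rule, their nearest regulators and partners, the genes with the highest and lowest pooled value in each list, and the 3 genes most like each of the 8. *Cyp51*, *Msmo1* and *Stard4* fall outside this rule and were chosen after their values were seen. Some genes of the lists are not reported here by name. Alternatives were TMM, DESeq2 1.42.0, RUVr with 1, 2 or 3 factors (rewritten from its published steps), the likelihood ratio test, other filters, the receptor share as covariate, only the 6 lungs compared, a replicate block, no fold minimum and each lung left out. In data simulated for the female comparison (44986 genes), 2 of 50 genes changed 1.5-fold, 40 of 50 changed 2-fold and all 50 changed 3-fold were called, with 9 false calls. The changed genes were all well counted, every gene had the same spread between lungs, and no factor was shared within a library. These rates may therefore be higher than in the real data.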

Additional observations from a re-analysis of the deposited data

How the results depend on the processing

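In data simulated for the female comparison, 2 of 50 genes with a true fold of 1.5, which is also the fold a call had to exceed, were called, so a count of 0 in females does not show that levels were alike. Of the counts of the 8 genes called, 61 kept their value over the alternatives that keep all lungs and 9 were higher, each with 1 gene called: *Hmgcs1* in females under RUVr with 1, 2 or 3 factors and under the replicate block, *Abca1* in males under RUVr with 2 or 3 factors, and *Pltp* in the interaction under RUVr with 1, 2 or 3 factors. These settings also called 4.16% to 4.48% (RUVr) and 1.04% (block) of all genes in females, 0.109% to 0.164% in males and 4.61% to 5.23% in the interaction. Leaving out each lung in turn gave 0 to 1 gene called in females and 0 to 1 pooled, both through room air female 6, without which 0.44% and 0.0684% of all genes were called. For the replicate block, the animal number did not pair the lungs, as deviations from the group means correlated at 0.21 and -0.33 in the females that share a number and at -0.49 in the males, who share only 1, so no block could be fitted in males alone. In the block fit only lungs that share a number inform the exposure difference. Room air female 6 and hyperoxia female 4 therefore did not count towards it. Under the block *Hmgcs1* was at -0.96 in females, and 0 of the 8 were called pooled, against 0.00436% of all genes. The receptor background subtraction was chosen after seeing the data.

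The following directions turned. With receptor share in the fit, the interaction was 0.18 for *Hmgcs1*, 0.093 for *Sqle*, 0.067 for *Srebf2*, 0.0052 for *Abca1*, 0.029 for *Abcg1* and 0.10 for *Apoe*. Room air females minus males was then -0.0011 for *Hmgcs1*, -0.19 for *Abca1*, -0.054 for *Apoe* and -0.10 for *Pltp*, and hyperoxia females minus males was 0.051 for *Abcg1* and 0.048 for *Apoe*. The female difference was 0.12 for *Abcg1* and 0.20 for *Apoe*, and the pooled one 0.15 for *Apoe*, 0.028 for *Pltp*, 0.028 for *Scap* and 4.3e-05 for *Soat1*. With receptor background subtracted, *Idi1* was at -1.22 in females, 1.05 in males, -2.27 in the interaction and 2.31 between the sexes in room air, *Sqle* at 0.064 in the interaction, *Abcg1* at 0.034 in females and 0.054 between the sexes in hyperoxia, *Apoe* at 0.062 pooled and 0.013 between the sexes in hyperoxia, and *Scap* at 0.013 pooled. Under TMM, DESeq2 and no filter, *Idi1* was at -0.015, -0.073 and -0.018 in females and at 0.016, 0.074 and 0.013 between the sexes in room air, *Abcg1* at -0.012, -0.035 and -0.011 pooled, and *Mylip* at -0.017, -0.085 and -0.023 in females. DESeq2 also gave -0.00066 for *Srebf2* between the sexes in hyperoxia, -0.016 for *Nr1h3* pooled and -0.017 for *Scarb1* pooled, and the replicate block -0.028 for *Idi1* in females and 0.021 for *Apoe* pooled. The cause of these turns was not tested.

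Leaving out 1 lung turned the sign of 15 values of single genes, which then ran from -0.090 to 0.28 for *Abca1* in females, -0.037 to 0.11 for *Idi1* in females, -0.16 to 0.18 for *Mylip* in females and -0.056 to 0.41 for *Pltp* in males. Pooled ranges were -0.058 to 0.070 for *Abcg1*, -0.13 to 0.093 for *Apoe*, -0.061 to 0.11 for *Nr1h3*, -0.096 to 0.016 for *Scap* and -0.11 to 0.12 for *Scarb1*. Between the sexes they were -0.11 to 0.092 for *Idi1* in room air, and in hyperoxia -0.13 to 0.084 for *Abcg1*, -0.30 to 0.13 for *Apoe*, -0.038 to 0.26 for *Hmgcs1*, -0.050 to 0.13 for *Sqle* and -0.11 to 0.15 for *Srebf2*. Of the 48 values of the 8 genes over the 6 comparisons, 11 turned sign when 1 lung was left out, 27 kept it but moved by over 1.5 times, and 10 did neither. Of the 77 values of all genes named, 15 turned, 35 moved and 27 did neither. Pooled, *Soat1* ran from -0.31 to -0.077, *Srebf1* from -0.23 to -0.052 and *Nr1h2* from -0.21 to -0.064.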
